A study of Mus musculus with 8 samples.

Results

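The genes described here are 9 genes tied to FOXO and KLF transcription factors, to lymphocyte exit from tissues and to quiescence, chosen by symbol: Foxo1, Foxo3, Klf2, Klf3, Klf6, Klf13, S1pr1, Btg1 and Btg2. The choice was made with earlier results of these data known. All 9 were found among the 50686 genes of the count table, and all 9 passed the filter on low counts that left 13644 genes tested. They were measured by RNA sequencing of group 2 innate lymphoid cells (ILC2) from the thymus of C57BL/6 mice carrying the plck-Id1 transgene. In those mice Id1, an inhibitor of E proteins, is driven by the proximal promoter of the T lineage kinase gene Lck. The cells carried a MIGR1 retrovirus and had been sorted for GFP and grown with cytokines that included IL-7, IL-25 and IL-33.

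There were 4 groups of 2 libraries: E47-ER cells and GFP cells after 4 h with 4-hydroxytamoxifen, and E47-ER cells and GFP cells after 16 h with it. E47-ER cells carried a virus encoding GFP and a fusion of the E protein E47 with an estrogen receptor domain, and GFP cells carried a virus encoding GFP alone. All 8 libraries thus came from Id1 transgenic, transduced, cytokine-expanded and tamoxifen-treated cells, and no library of E47-ER cells without the drug was used here. Whether the replicates of a group are separate mice or cultures is not stated in the labels. The p-values then rest on the spread between these samples alone, and that spread may be technical.

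FOXO1 and FOXO3 are forkhead transcription factors that AKT keeps out of the nucleus when growth factor and cytokine receptors signal. In T cells FOXO1 raises the transcription of Klf2, Ccr7 and Il7r, and KLF2 in turn raises S1pr1, so that resting cells leave the thymus and circulate. The sphingosine 1-phosphate receptor S1PR1 carries lymphocytes out of tissue toward the lipid in blood and lymph, and BTG1 and BTG2 bring the CCR4-NOT deadenylase to mRNAs and help to keep T cells quiescent. E47, a product of Tcf3, binds the E-box letters CANNTG, and fusion to the estrogen receptor domain makes it respond to 4-hydroxytamoxifen.

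Library totals ranged from 8813782 to 18677675 counts, and levels are given as CPM, in which the counts of a gene are scaled to a common library size with TMM factors. Esr1, whose reads include those of the receptor domain of the construct, stood at 52.6 and 45.6 CPM in E47-ER cells against 0.316 and 0.211 CPM in GFP cells at 4 h, and at 43.8 and 54.5 CPM against 0.537 and 0.932 CPM at 16 h. Tcf3, which takes reads of the construct and of the cells' own gene, had 151 and 163 CPM in E47-ER cells against 79.4 and 81.4 CPM in GFP cells at 4 h, and 146 and 170 CPM against 87.6 and 67.6 CPM at 16 h. Id1, the gene of the transgene and of the cells, had 66.4 and 59.9 CPM in E47-ER cells against 36.8 and 23.7 CPM in GFP cells at 4 h, and 81.4 and 67.6 CPM against 30.03 and 13.8 CPM at 16 h. Every one of the 15 ILC2 markers was above 1 CPM in at least 1 library, with Gata3 between 865 and 1480 CPM and Il1rl1 between 1667 and 2150 CPM. Their levels were not all alike between cell groups. All 4 E47-ER libraries lay below all 4 GFP libraries for Il5 (3576 to 3893 against 4605 to 7767 CPM), Il13, Areg and Il2ra. They lay above them for Rora (128 to 158 against 69.3 to 81.1 CPM), Il17rb, Id2, Thy1, Bcl11b and Ptprc, and the rest overlapped. Of all tested genes 15.2% did not overlap. GFP 16 h replicate 2 stood apart: it correlated with the remaining libraries at 0.954 on average, whereas those had averages of 0.980 to 0.983. The median absolute log2 difference between its group's replicates was 0.46, against 0.13 to 0.15 in the other groups. The difference of replicate 2 from replicate 1 followed exon length, with a median log2 difference of 0.50 in genes of at most 2373 bases and -0.28 in genes of at least 6385 bases. Tests are therefore given from all 8 libraries and again without that library. Without it a single library stands for GFP cells at 16 h, and the spread is estimated from the other groups.

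Promoters of Klf2, Klf13, Btg2 and Klf6 are shown because E47 binds DNA at E-boxes. With S1pr1, these are the genes called at 16 h when GFP 16 h replicate 2 was left out, and none of them was called at 16 h with all 8 libraries. The sequences are from RefSeq on GRCm38.p6, from 250 bases before the transcription start to 50 bases from it, in the direction of transcription. RefSeq promoters were matched for 8 of the 9 genes, all but S1pr1. Capitals mark matches to the E-box CANNTG or to the KLF letters CACCC and their reverse complement GGGTG, searched on both strands.
Klf2 (chr8:72318812-72319111, + strand): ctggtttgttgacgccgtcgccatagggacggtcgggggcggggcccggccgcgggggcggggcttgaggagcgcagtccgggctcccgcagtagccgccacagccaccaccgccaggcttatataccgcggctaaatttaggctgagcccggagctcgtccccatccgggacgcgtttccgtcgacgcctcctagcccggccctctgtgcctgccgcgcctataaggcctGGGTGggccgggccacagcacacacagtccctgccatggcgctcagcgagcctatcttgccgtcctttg
Klf13 (chr7:63938866-63939165, - strand): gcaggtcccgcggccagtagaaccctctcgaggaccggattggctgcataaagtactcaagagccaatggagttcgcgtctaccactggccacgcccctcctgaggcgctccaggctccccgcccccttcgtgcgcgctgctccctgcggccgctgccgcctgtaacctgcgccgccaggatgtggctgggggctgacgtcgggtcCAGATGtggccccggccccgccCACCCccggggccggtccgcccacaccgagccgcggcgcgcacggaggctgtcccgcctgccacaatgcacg
Btg2 (chr1:134079106-134079405, - strand): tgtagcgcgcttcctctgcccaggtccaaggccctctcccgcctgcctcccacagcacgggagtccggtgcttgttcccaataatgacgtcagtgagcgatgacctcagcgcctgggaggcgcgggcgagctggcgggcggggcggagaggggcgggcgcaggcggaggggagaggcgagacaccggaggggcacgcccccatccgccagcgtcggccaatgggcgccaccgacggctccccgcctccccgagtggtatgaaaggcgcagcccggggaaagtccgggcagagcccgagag
Klf6 (chr13:5861239-5861538, + strand): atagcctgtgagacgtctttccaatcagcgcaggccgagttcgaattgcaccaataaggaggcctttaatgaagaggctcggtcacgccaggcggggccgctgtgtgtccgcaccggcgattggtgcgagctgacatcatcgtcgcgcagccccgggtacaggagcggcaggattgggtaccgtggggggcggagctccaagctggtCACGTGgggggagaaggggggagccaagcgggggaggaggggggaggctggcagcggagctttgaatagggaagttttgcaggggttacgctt
None of the 8 matched promoters held the E-box letters CAGGTG or CACCTG, which 20.2% of 32851 RefSeq promoters of this length held, or CAGCTG, which 16.3% held. The wider pattern CANNTG, present in 72.3% of all promoters, was found in those of Foxo1, Klf3, Klf6 and Klf13. In Klf6 it was CACGTG, starting at position -43 from the transcription start, and in Klf13 it was CAGATG at position -44. CACCC or GGGTG, present in 57.5% of promoters, was found in Klf2 at position -19, in Klf13 at position -22 and at 5 places in Klf3, where 1 E-box overlapped these letters. The FOXO letters GTAAACA or TGTTTAC, present in 3.65% of promoters, were found in Btg1 alone, at position -204. These are matches of letters within these windows.

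Scaled per kilobase of exon, the 9 genes covered a wide range of levels. Averaged over the 8 libraries, Btg1 had the highest level at 269 CPM per kb, followed by Klf6 at 65.6, Btg2 at 22.7 and Foxo3 at 18.2 CPM per kb. Klf13 and Foxo1 followed at 7.69 and 7.51 CPM per kb, and their ranges over libraries overlapped. S1pr1 at 2.75 and Klf2 at 2.06 CPM per kb also overlapped over libraries, while Klf3 was lowest at 0.189 CPM per kb. The antiproliferative gene Btg1 and the zinc finger factor gene Klf6 thus lay at the top, and the genes of the egress receptor and of its activator in T cells near the bottom. Klf2 had 22 to 119 counts per library, S1pr1 59 to 221 and Klf3 15 to 45, so counting error is larger for these 3 than for the rest. Foxo1 and Klf3 share exon bases with the antisense genes Gm20402 and Gm20033, and the strand setting is not given in the sources used here, so reads of each pair cannot be told apart.

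**Figure D1:**
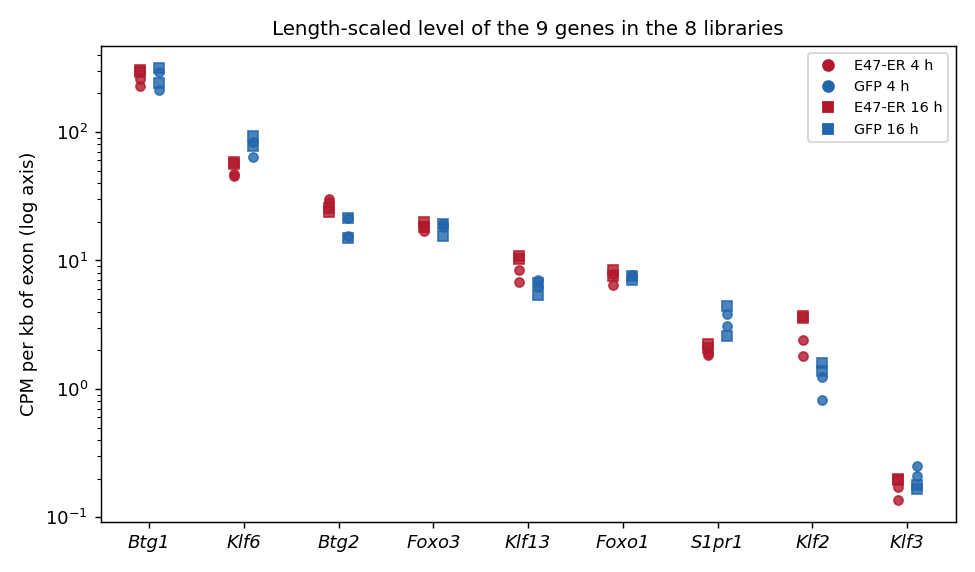
Level of each gene in each library in TMM-scaled CPM per kilobase of exon, on a log axis, with E47-ER libraries in red left of GFP libraries in blue, circles for 4 h and squares for 16 h. Btg1 lies highest at a mean of 269 CPM per kb and Klf3 lowest at 0.189 CPM per kb.

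For both FOXO genes the E47-ER and GFP libraries overlapped at both times, and neither gene passed the test with all 8 libraries. Foxo1 (chr3:52268336-52353221, + strand, in GENCODE M21 on GRCm38, as for the positions that follow) had 55.9 and 67.4 CPM in E47-ER cells and 65.1 and 66.2 CPM in GFP cells at 4 h. Values at 16 h were 65.7 and 73.1 CPM in E47-ER cells and 61.6 and 65.8 CPM in GFP cells. In the order of group means, which ran from E47-ER 4 h through GFP 16 h and GFP 4 h to E47-ER 16 h, each neighbour overlapped the next. The log2 fold change of Foxo1 was -0.09 at 4 h, with a 95% interval of -0.41 to 0.23, and 0.12 at 16 h, with an interval of -0.20 to 0.45. Adjusted p-values in edgeR's quasi-likelihood test with Benjamini-Hochberg adjustment were 1 and 0.581. In bulk samples, a change in the share of cells that express a gene and a change in RNA per cell cannot be told apart.

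Foxo3 (chr10:42181841-42276755, - strand), which encodes a second forkhead factor under the control of AKT, also overlapped between groups. It had 128 and 140 CPM in E47-ER cells and 138 and 145 CPM in GFP cells at 4 h, and 138 and 150 CPM in E47-ER cells and 146 and 117 CPM in GFP cells at 16 h. The lowest value was that of GFP 16 h replicate 2, and no group stood apart from its neighbour in level. Its log2 fold change was -0.08 at 4 h, with a 95% interval of -0.41 to 0.26, and 0.13 at 16 h, with an interval of -0.21 to 0.46 (edgeR adjusted p = 1 and 0.588). The value at 16 h was -0.03 without GFP 16 h replicate 2, with an interval of -0.23 to 0.18. With GFP 16 h replicate 1 left out instead, the value for Foxo3 was 0.32 and it was called (edgeR adjusted p = 0.0171), in a fit that called 7022 genes and rests on the library that stands apart.

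Klf2 (chr8:72319033-72321656, + strand), the KLF gene that FOXO1 activates in T cells, was higher in E47-ER cells at both times. It had 4.42 and 3.31 CPM in E47-ER cells against 1.52 and 2.27 CPM in GFP cells at 4 h. At 16 h it had 6.54 and 6.87 CPM in E47-ER cells against 2.55 and 2.93 CPM in GFP cells. All 4 E47-ER libraries lay above all 4 GFP libraries, and the 4 groups did not overlap in the order GFP 4 h, GFP 16 h, E47-ER 4 h and E47-ER 16 h. Group means were 3.86 ± 0.782 and 1.89 ± 0.534 CPM in E47-ER and GFP cells at 4 h, and 6.71 ± 0.229 and 2.74 ± 0.266 CPM at 16 h (SD, n = 2 each). The fitted fold was 2.02 at 4 h and 2.47 at 16 h, with log2 fold changes of 1.02 (SE 0.283) and 1.30 (SE 0.280). By edgeR with all 8 libraries the adjusted p was 0.442 at 4 h and 0.0705 at 16 h, so neither passed 0.05. Both passed without GFP 16 h replicate 2, at an adjusted p of 0.033 for a log2 fold change of 1.02 and of 0.00685 for 1.38. With the 4 libraries of 4 h alone Klf2 did not pass (edgeR adjusted p = 0.0872).

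Klf13 (chr7:63886351-63938915, - strand), a KLF gene known in T cells for the late activation of Ccl5, was higher in E47-ER cells at 16 h. It had 51.2 and 63.5 CPM in E47-ER cells and 53.4 and 46.6 CPM in GFP cells at 4 h, where the groups overlapped. At 16 h it had 76.7 and 81.0 CPM in E47-ER cells against 50.0 and 40.7 CPM in GFP cells. The E47-ER 16 h libraries were above all 6 others, and of the other groups each overlapped its neighbour in level. The log2 fold change was 0.20 at 4 h, with a 95% interval of -0.18 to 0.58, and 0.79 at 16 h (SE 0.165), a fitted fold of 1.73. At 16 h the edgeR adjusted p was 0.0655 with all 8 libraries and 0.00217 without GFP 16 h replicate 2, where the log2 fold change was 0.65.

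Klf6 (chr13:5861482-5870394, + strand), a KLF gene that many cells induce early after stimulation, was lower in E47-ER cells at both times. It had 206 and 200 CPM in E47-ER cells against 280 and 366 CPM in GFP cells at 4 h, and 255 and 245 CPM in E47-ER cells against 341 and 411 CPM in GFP cells at 16 h. Every E47-ER library was below every GFP library. The replicates of E47-ER cells lay close together, at means of 203 ± 4.68 and 250 ± 6.94 CPM, whereas GFP means were 323 ± 60.8 and 376 ± 48.9 CPM at 4 and 16 h (SD, n = 2 each). In the order of means, from E47-ER 4 h through E47-ER 16 h and GFP 4 h to GFP 16 h, only the 2 GFP groups overlapped. The log2 fold change was -0.67 (SE 0.164) at 4 h and -0.59 (SE 0.164) at 16 h, fitted folds of 0.630 and 0.666. The edgeR adjusted p was 0.332 and 0.124 with all 8 libraries, and 0.000247 and 0.0188 without GFP 16 h replicate 2.

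Klf3 (chr5:64803388-64832901, + strand), which encodes a KLF protein that acts mainly as a repressor, had the lowest level of the 9 genes. It had 1.54 and 1.94 CPM in E47-ER cells and 2.84 and 2.38 CPM in GFP cells at 4 h, and 2.20 and 2.25 CPM in E47-ER cells and 1.88 and 2.00 CPM in GFP cells at 16 h. Both E47-ER libraries were below both GFP libraries at 4 h and above both at 16 h. Neither difference passed the test: the log2 fold change was -0.58 at 4 h, with a 95% interval of -1.22 to 0.05, and 0.21 at 16 h, with an interval of -0.45 to 0.87 (edgeR adjusted p = 0.913 and 0.659).

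S1pr1 (chr3:115710433-115715072, - strand), the egress receptor gene that KLF2 activates in T cells, was lower in E47-ER cells at both times, the opposite direction to Klf2. It had 5.76 and 5.61 CPM in E47-ER cells against 9.36 and 11.7 CPM in GFP cells at 4 h. Values at 16 h were 6.88 and 6.35 CPM in E47-ER cells against 13.6 and 7.86 CPM in GFP cells. All 4 E47-ER libraries lay below all 4 GFP libraries, and GFP 16 h replicate 2 was the lowest of the GFP libraries, 0.79 below its partner on the log2 scale. Group means were 5.69 ± 0.104 and 10.5 ± 1.64 CPM in E47-ER and GFP cells at 4 h, and 6.61 ± 0.374 and 10.7 ± 4.04 CPM at 16 h (SD, n = 2 each). The log2 fold change was -0.89 (SE 0.266) at 4 h and -0.73 (SE 0.267) at 16 h, fitted folds of 0.540 and 0.605. In edgeR the adjusted p was 0.493 and 0.171 with all 8 libraries. With GFP 16 h replicate 2 left out it was 0.00358 at 4 h and 0.00172 at 16 h, where the log2 fold change was -1.05. When GFP 16 h replicate 1 was left out instead, the log2 fold change at 16 h was -0.23.

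Other cells that express S1pr1 or Klf2 were checked by their markers. Of 5 endothelial markers, Emcn was at 0 and Cdh5, Kdr and Tek were under 1 CPM in every library, while Pecam1, which blood cells also express, ranged from 123 to 173 CPM. Of 10 T cell markers, 6 were under 1 CPM in every library, Rag1 was at 0, Cd3e ranged from 26.0 to 38.3 CPM, and the summed level was 37.5 and 37.5 CPM in E47-ER cells and 33.8 to 37.8 CPM in GFP cells at 4 h. At 16 h that sum was 43.5 to 49.0 CPM in E47-ER cells and 32.2 to 39.3 CPM in GFP cells. Of 6 NK and ILC1 markers, 4 were under 1 CPM in every library, with Ncr1 at 0, while Gzma ranged from 2887 to 7895 CPM and Prf1 from 25.4 to 47.1 CPM. The NK and ILC1 sum, mostly Gzma, was 5304 to 7921 CPM in E47-ER cells and 3053 to 3536 CPM in GFP cells at 4 h, and 6412 to 7942 CPM in E47-ER cells and 2919 to 7519 CPM in GFP cells at 16 h. Of 5 B cell markers 4 were under 1 CPM in every library, and their sum was 6.55 to 8.15 CPM in E47-ER cells and 6.45 to 14.2 CPM in GFP cells. Of 7 myeloid markers 2 were under 1 CPM in every library, and their sum was 20.4 to 31.3 CPM in E47-ER cells and 15.8 to 21.2 CPM in GFP cells. Of 6 stromal and epithelial markers 5 were under 1 CPM in every library, and Epcam had 10.2 and 13.8 CPM in E47-ER cells against 5.12 and 7.08 CPM in GFP cells at 4 h, and 22.2 and 20.4 CPM against 5.98 and 8.79 CPM at 16 h. Of these lists, Epcam at 16 h was called with all 8 libraries. When GFP 16 h replicate 2 was left out, Epcam was called at both times, the myeloid marker Csf1r, at 1.09 CPM or less in every library, at 4 h, and the T cell marker Cd3e at 16 h, all higher in E47-ER cells. The part of these transcripts in the results at either time was not tested.

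Btg1 (chr10:96617006-96622809, + strand), the most abundant of the 9 genes, did not pass at either time. It had 1211 and 1367 CPM in E47-ER cells and 1121 and 1551 CPM in GFP cells at 4 h, and 1540 and 1597 CPM in E47-ER cells and 1278 and 1674 CPM in GFP cells at 16 h. The E47-ER replicates lay within the range of the GFP replicates at both times. The log2 fold change was -0.05 at 4 h, with a 95% interval of -0.51 to 0.41, and 0.09 at 16 h, with an interval of -0.37 to 0.55 (edgeR adjusted p = 1 and 0.796).

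Btg2 (chr1:134075170-134079120, - strand), the second antiproliferative gene and a known target of p53 and of early stimulation, was higher in E47-ER cells at both times. It had 78.5 and 82.7 CPM in E47-ER cells against 58.7 and 42.7 CPM in GFP cells at 4 h, and 65.1 and 69.7 CPM in E47-ER cells against 40.8 and 59.0 CPM in GFP cells at 16 h. All 4 E47-ER libraries were above all 4 GFP libraries, and the 2 GFP groups overlapped each other. Its log2 fold change was 0.67 (SE 0.209) at 4 h and 0.44 (SE 0.210) at 16 h, fitted folds of 1.59 and 1.36. In edgeR the adjusted p was 0.531 and 0.235 with all 8 libraries. Leaving out GFP 16 h replicate 2 made it 0.00126 and 0.0043, and the log2 fold change at 16 h was then 0.72. When GFP 16 h replicate 1 was left out instead, that of Btg2 at 16 h was 0.22 and did not pass (edgeR adjusted p = 0.255).

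**Figure D2:**
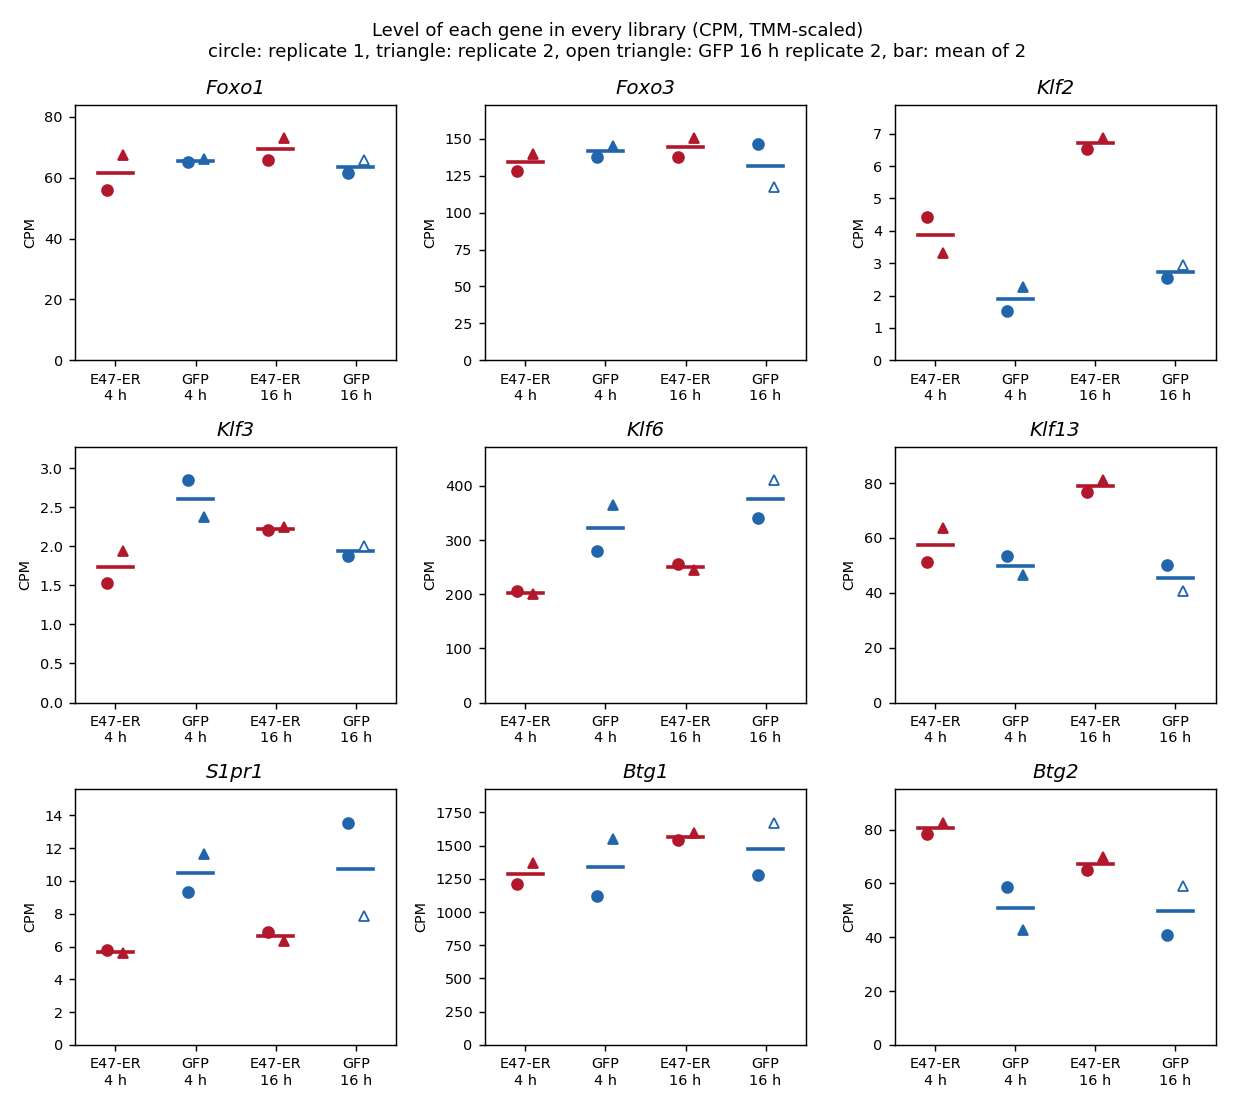
Level of each of the 9 genes in every library in TMM-scaled CPM, with E47-ER in red left of GFP in blue at 4 h and then at 16 h, bars for the mean of 2 libraries and an open triangle for GFP 16 h replicate 2. Klf2 and Btg2 are higher and Klf6 and S1pr1 lower in all 4 E47-ER libraries than in all 4 GFP libraries, while Foxo1, Foxo3 and Btg1 overlap.

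Counted together at 4 h, the E47-ER and GFP libraries did not overlap for 5 of the 9 genes: Klf2 and Btg2 were higher and Klf3, Klf6 and S1pr1 lower in E47-ER cells. Among all tested genes 45.4% did not overlap. At 16 h it was 6 of 9, with Klf2, Klf3, Klf13 and Btg2 higher and Klf6 and S1pr1 lower, against 54.3% of all tested genes. These shares are near or little above the background. Over both times, 4 of the 9 genes had no overlap between 4 E47-ER and 4 GFP libraries, against 15.2% of all tested genes. Klf2 and Btg2 were higher, as were 7.86% of all genes, and Klf6 and S1pr1 lower, as were 7.32%. The 9 genes were chosen with earlier results of these data known. A share above the background, here or in the calls that follow, therefore only describes them.

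With all 8 libraries edgeR called 0 of the 9 genes at 4 h, where 0.286% of all tested genes were called, and 0 at 16 h, where 1.59% were. Unadjusted p-values were under 0.05 for 4 of them at each time. The share of all tested genes under that unadjusted threshold is not given here. Counts by unadjusted p, here and below, therefore only describe the genes counted. DESeq2 called 0 at 4 h and 3 at 16 h, where it called 0.894% and 7.71% of all genes, and limma with voom quality weights called 3 at 4 h and 0 at 16 h, where it called 2.97% and 0.403%. Without GFP 16 h replicate 2 edgeR called 4 of 9 at 4 h (Klf2 and Btg2 rose, Klf6 and S1pr1 fell), where 4.33% of all tested genes were called. At 16 h it called 5 of 9 (Klf2, Klf13 and Btg2 rose, Klf6 and S1pr1 fell), where 8.92% were called. At 16 h that fit sets the E47-ER libraries against a single GFP library. The fold changes at 4 h rest on the same 4 libraries in both fits, while the estimate of the spread, shared by all groups, rests on 8 libraries or on 7. With those 4 libraries alone Btg2, Klf6 and S1pr1 were called at 4 h, where 3.38% of all genes were called.

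A comparison of E47-ER with GFP averaged over both times was added after the values had been seen, and it uses the same libraries again. With all 8 libraries edgeR called Klf2, which rose by 1.16 on the log2 scale (SE 0.199, adjusted p = 0.0246), and Klf6, which fell by 0.63 (SE 0.116, adjusted p = 0.0342). These 2 of 9 genes compare with 2.46% of all tested genes. S1pr1 at -0.81 and Klf13 at 0.50 both had an adjusted p of 0.0737 in edgeR, and Btg2 at 0.56 had 0.106. None of the 9 genes was called when any library other than the 2 of GFP 16 h was left out, in 6 of the 8 fits with 1 library less, or with a replicate block within each time. In the 6 fits the log2 fold change of Klf2 was 1.04 to 1.33 and that of Klf6 -0.71 to -0.52. All 5 genes were called without GFP 16 h replicate 2, where 14.5% of tested genes were.

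**Figure D3:**
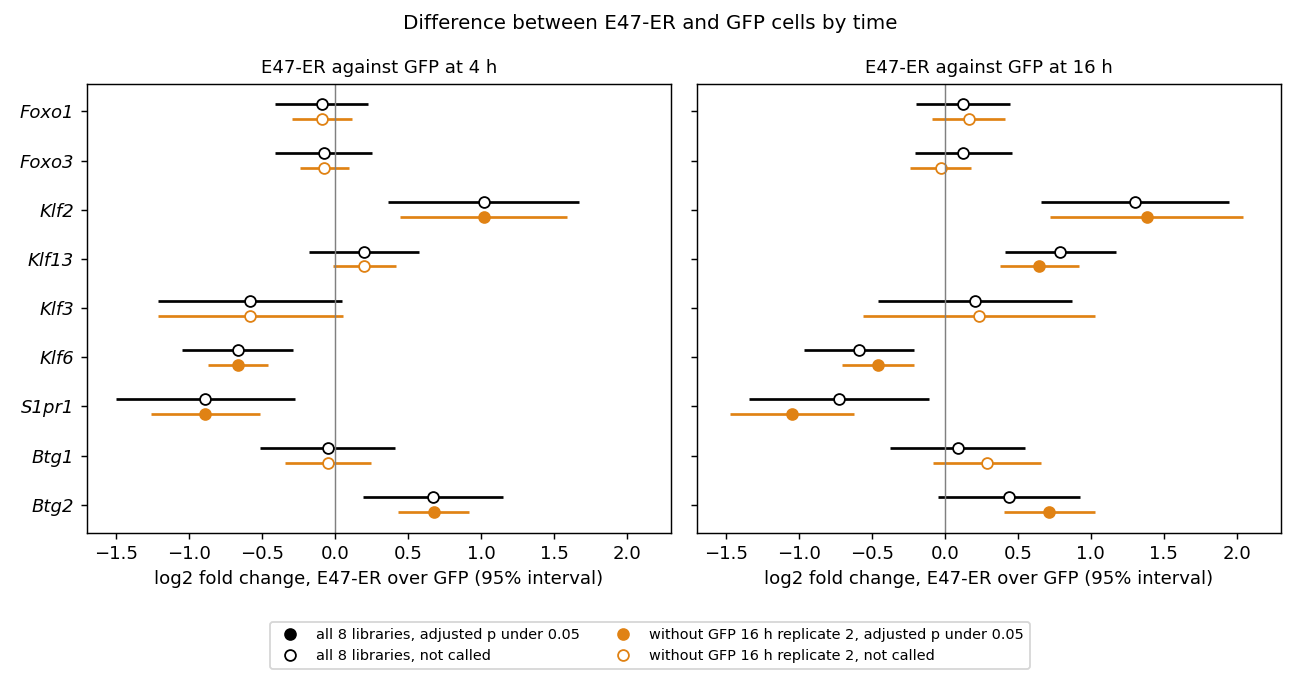
Log2 fold change of each gene, E47-ER over GFP, at 4 h (left) and 16 h (right), with 95% intervals from edgeR, in black with all 8 libraries and in orange without GFP 16 h replicate 2; filled points have an adjusted p under 0.05. Klf2 lies at 1.02 and 1.30 and S1pr1 at -0.89 and -0.73 with all 8 libraries, and Foxo1, Foxo3 and Btg1 lie near 0.

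Levels at 16 h were set against those at 4 h within each cell group. In E47-ER cells with all 8 libraries, edgeR called 0 of the 9 genes, where 0.0147% of all genes were called. Unadjusted p-values were under 0.05 for 2, Klf2 at a log2 fold change of 0.79 and Klf13 at 0.46. DESeq2 called 0, and limma called both, where it called 2.98% of all genes. In E47-ER cells Klf13 rose by 0.45 on the log2 scale at 16 h without GFP 16 h replicate 2 (SE 0.103, edgeR adjusted p = 0.0198), where 3.08% of genes were called. In GFP cells none of the 9 genes had an adjusted p under 0.05 in edgeR, DESeq2 or limma, and none an unadjusted p under 0.05 in any of these, where edgeR called 0% of genes with all 8 libraries and 0.00707% without GFP 16 h replicate 2. The difference between the E47-ER effects at 16 h and 4 h was largest among the 9 for Klf3 at 0.79 and Klf13 at 0.59 (SE 0.398 and 0.232, edgeR adjusted p = 0.699 for each). In that test 0 of 9 genes were called by edgeR, DESeq2 or limma with all 8 libraries, and Klf13 alone had an unadjusted p under 0.05 in edgeR. Of all tested genes 0% were called in it with all 8 libraries, and 0.0424% without GFP 16 h replicate 2, where again 0 of 9 were.

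The wider pathways were read from lists of related genes, 165 genes in all, of which 147 were tested. With all 8 libraries edgeR called 0 of them at 4 h, with unadjusted p under 0.05 for 17 and with 4 called by DESeq2 and 10 by limma. At 16 h it called 5, all higher in E47-ER cells: Bcl2l11, Ccr8, Itgae, Ccr9 and Tcf7. Without GFP 16 h replicate 2, 18 of 148 were called at 4 h (12 rose and 6 fell) and 27 at 16 h (23 rose and 4 fell). These are 12.16% and 18.24% of the listed genes, beside 4.33% and 8.92% of all tested genes in the same fit, and the lists were chosen with earlier results of these data known. The counts that follow, and adjusted p-values with no other setting named, are from that fit. A single library stands for GFP cells at 16 h in it. Each list count is to be read beside the shares of all tested genes above. Medians over a list are given beside medians of all genes of 0.00 at both times.

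Among other KLF genes, 8 of 13 were tested and 0 were called at either time by edgeR, DESeq2 or limma. Unadjusted p was under 0.05 in edgeR for 1 at 4 h, Klf8 at a log2 fold change of -0.56 (named after its values were seen), and for 0 at 16 h. The list's median was -0.30 at 4 h and 0.02 at 16 h. Klf4, a KLF gene that restrains lymphocyte division, had 1.47 and 1.30 CPM in E47-ER cells and 1.90 and 1.69 CPM in GFP cells at 4 h, and did not pass.

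Upstream of FOXO, 22 of 23 genes of the FOXO family and the PI3K-AKT pathway were tested, with medians of 0.05 at 4 h and 0.20 at 16 h. At 4 h 2 rose and 0 fell, where 4.33% of all tested genes were called, and at 16 h 4 rose and 0 fell, where 8.92% were. Pik3cd, the catalytic subunit p110 delta of leukocytes, had 892 and 868 CPM in E47-ER cells against 741 and 695 CPM in GFP cells at 4 h (log2 fold change 0.30, edgeR adjusted p = 0.0277). Pik3r5, a regulatory subunit of the gamma enzyme, rose by 0.34 on the log2 scale at 4 h and by 0.60 at 16 h (edgeR adjusted p = 0.0302 and 0.00109). Pik3r1, a regulatory subunit, and Sgk1, a kinase that phosphorylates FOXO proteins, rose at 16 h by 0.43 and 0.80 (edgeR adjusted p = 0.00826 and 0.00189). Foxo4 was at 21.8 and 22.2 CPM in E47-ER cells and 23.1 and 20.2 CPM in GFP cells at 4 h, and Pik3ip1, a PI3K inhibitor gene, at 29.2 and 33.6 CPM and 28.5 and 31.5 CPM. Neither passed at either time.

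FOXO target genes moved in both directions, with medians of -0.05 at 4 h and -0.01 at 16 h over the 22 tested. At 4 h Bcl2l11 rose while Cited2 and Il7r fell, and at 16 h Bcl2l11, Cdkn1b and Ccng2 rose while Ccr7 and Cited2 fell. Cited2 had 106 and 94.1 CPM in E47-ER cells against 164 and 177 CPM in GFP cells at 4 h. At 16 h it had 121 and 130 CPM in E47-ER cells and 169 and 123 CPM in GFP cells, so the groups overlapped. The value of 123 CPM is that of GFP 16 h replicate 2, the library left out. Bcl2l11, which encodes the death-promoting protein BIM, had 102 and 110 CPM in E47-ER cells against 62.9 and 53.8 CPM in GFP cells at 4 h. Its values at 16 h were 88.5 and 94.3 CPM in E47-ER cells against 42.9 and 54.5 CPM in GFP cells, and it passed with all 8 libraries (log2 fold change 0.91, edgeR adjusted p = 0.0337). Cdkn1b, the gene of the cell cycle inhibitor p27, had 145 and 155 CPM in E47-ER cells against 116 and 133 CPM in GFP cells at 16 h. Its log2 fold change there was 0.37 without GFP 16 h replicate 2, the library at 133 CPM. Il7r, the interleukin 7 receptor gene, had 727 and 735 CPM in E47-ER cells against 883 and 913 CPM in GFP cells at 4 h (log2 fold change -0.29, edgeR adjusted p = 0.023), and did not pass at 16 h.

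Ccr7, the receptor gene for entry into lymph nodes that FOXO1 supports in T cells, was lower in E47-ER cells at 16 h. It had 14.96 and 12.6 CPM in E47-ER cells against 31.9 and 22.4 CPM in GFP cells at 16 h, so the groups did not overlap. Its log2 fold change there was -0.99 with all 8 libraries (edgeR adjusted p = 0.0804) and -1.22 without GFP 16 h replicate 2 (adjusted p = 2.22e-05).

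Of the sphingosine 1-phosphate and egress genes, 17 of 20 were tested, with medians of 0.03 at 4 h and 0.18 at 16 h, and 0 were called at 4 h and 1 at 16 h. The share called at each time was not above that of all tested genes in the same fit. At 4 h 1 had an unadjusted p under 0.05 in edgeR, and DESeq2 and limma also called 0. The gene called at 16 h was Cd69, whose product removes S1PR1 from the cell surface: it had 671 and 658 CPM in E47-ER cells and 427 and 675 CPM in GFP cells, where the second GFP value is that of replicate 2. The log2 fold change of Cd69 at 16 h was 0.63 without that library (edgeR adjusted p = 0.00794) and 0.27 with it (adjusted p = 0.464). S1pr4, another receptor gene for the same lipid, had 98.4 and 110 CPM in E47-ER cells and 103 and 93.7 CPM in GFP cells at 4 h, and 110 and 121 CPM against 92.2 and 117 CPM at 16 h, and did not pass at either time. S1pr5 had 7 counts in all 8 libraries and was not tested.

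Homing receptor genes moved in both directions, with medians of 0.18 at 4 h and 0.11 at 16 h over the 15 tested. At 4 h 2 rose and 1 fell, and at 16 h 5 rose and 2 fell. Ccr8, a chemokine receptor gene of type 2 lymphocytes, had 58.0 and 55.0 CPM in E47-ER cells against 30.5 and 29.1 CPM in GFP cells at 4 h, and 58.7 and 60.0 CPM against 25.7 and 19.6 CPM at 16 h. At 16 h Ccr8 passed with all 8 libraries (log2 fold change 1.38, edgeR adjusted p = 0.00635). Itgae, whose product holds lymphocytes at epithelium, had 257 and 311 CPM in E47-ER cells against 156 and 114 CPM in GFP cells at 16 h, and also passed with all 8 (log2 fold change 1.07, edgeR adjusted p = 0.0271). Itga4, an integrin gene for entry into tissue, fell at 4 h by 0.48 on the log2 scale (edgeR adjusted p = 0.00865), with 26.4 and 24.97 CPM in E47-ER cells against 33.8 and 38.2 CPM in GFP cells. Ccr9, which also passed at 16 h, rested on 30 and 29 counts in E47-ER cells and 4 and 2 in GFP cells (edgeR adjusted p = 0.0312 with all 8 libraries). Ccr9 and Itgae overlap other annotated genes, Lztfl1 and Haspin, on the opposite strand.

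Of 17 BTG, TOB and CCR4-NOT genes, the family and partners of Btg1 and Btg2, 16 were tested, and the medians were 0.06 at 4 h and 0.14 at 16 h. At each time 1 of the 16 rose, a share near the 4.33% and 8.92% of all tested genes called in that fit. Pan2, the gene of a deadenylase subunit, had 46.97 and 40.2 CPM in E47-ER cells against 33.8 and 27.2 CPM in GFP cells at 4 h (edgeR adjusted p = 0.00809). Cnot6l, a CCR4-NOT deadenylase gene, had 215 and 213 CPM in E47-ER cells against 167 and 164 CPM in GFP cells at 16 h. Tob1, an antiproliferative relative of the BTG genes, had 9.92 and 12.3 CPM in E47-ER cells and 12.1 and 15.1 CPM in GFP cells at 4 h and did not pass. Other quiescence genes had medians of 0.01 and 0.10 over the 16 tested, with 2 that rose at 4 h and 4 at 16 h. Tcf7, which encodes the transcription factor TCF-1, had 6.85 and 7.41 CPM in E47-ER cells against 2.91 and 1.48 CPM in GFP cells at 4 h, and 16.7 and 19.2 CPM against 1.81 and 1.07 CPM at 16 h. At 16 h Tcf7 passed with all 8 libraries (log2 fold change 3.55, edgeR adjusted p = 0.00414). Bach2, a repressor gene of resting lymphocytes, rested on 49 and 34 counts in E47-ER cells against 11 and 3 in GFP cells at 4 h.

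**Figure D4:**
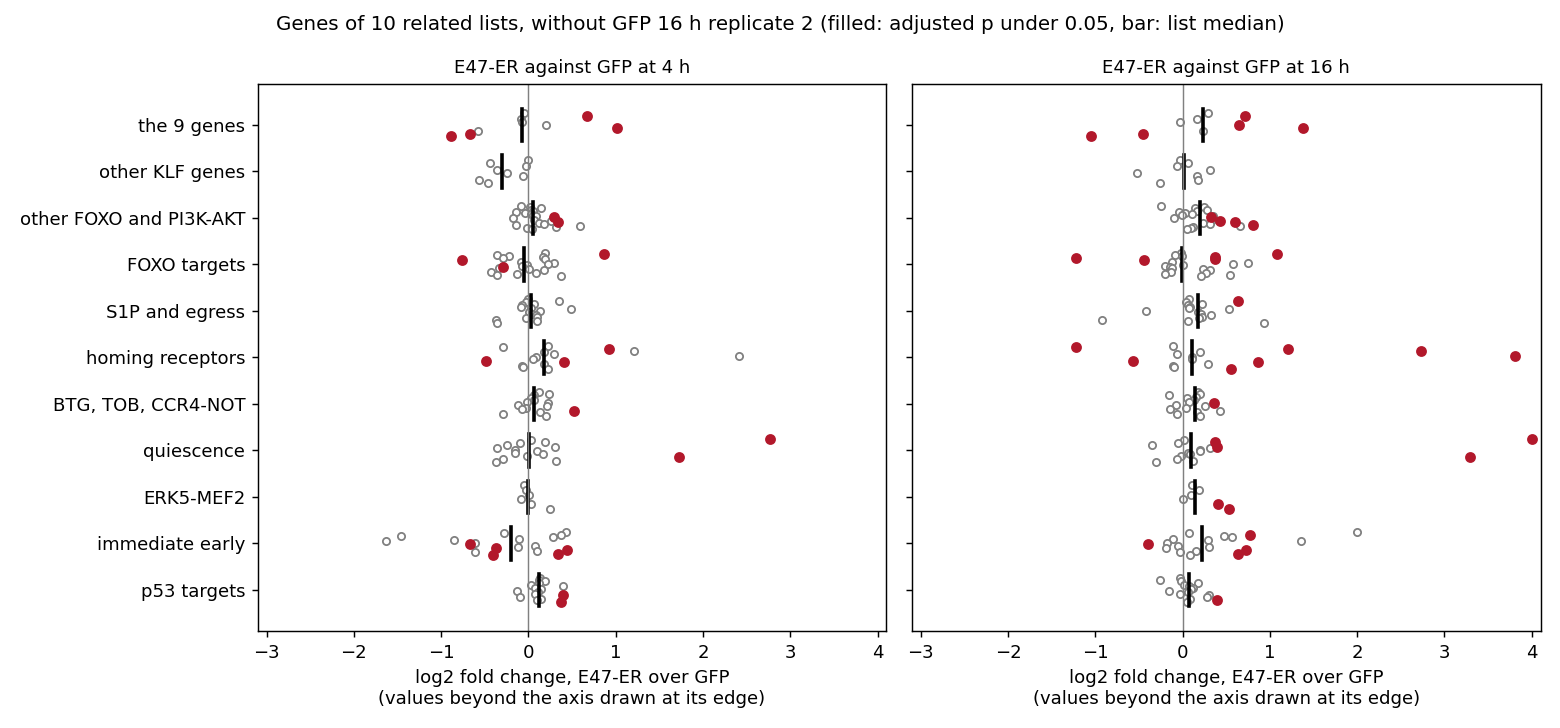
Log2 fold change, E47-ER over GFP, of each tested gene of the 9-gene set and of 10 related lists at 4 h (left) and 16 h (right), fitted without GFP 16 h replicate 2, with filled points for an adjusted p under 0.05 in edgeR and bars for list medians. The medians lie between -0.30 and 0.24 while single genes such as Tcf7 and Ccr8 lie far above 0; Bach2 at 16 h is drawn at the axis edge.

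The genes whose levels followed Foxo1, Klf2 and S1pr1 most closely were found by Pearson correlation of log2 CPM, taking the lower of the values over all 8 libraries and over the 7 without GFP 16 h replicate 2. The search covered 8738 or 8739 genes, and these points share libraries and groups, so the values are descriptions. Fam219a, Dbp and Dmap1 were most like Foxo1, at 0.934, 0.907 and 0.875. Ercc5, Rpgrip1 and Arl5c were most like Klf2, at 0.972, 0.968 and 0.966. Impa2, Bcar1 and Orc2 were most like S1pr1, at 0.985, 0.9755 and 0.969. The values for Klf2 and S1pr1 are higher than those for Foxo1, whose own levels varied less, between 55.9 and 73.1 CPM.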

How the data were processed

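The table that the authors deposited holds raw counts by Ensembl gene ID, without normalization. RNA was total RNA extracted with trizol, per the labels. The build mm10 and DESeq2 are named in the submitters' processing notes. The aligner, counting tool, annotation release and strand setting were not given in the sources used here. Of 50686 gene IDs, 50462 matched GENCODE M21 on GRCm38, which gave symbols, lengths and overlaps.

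All 8 libraries were fitted together with 1 mean per group in edgeR 4.0.16 (R 4.3.3): filterByExpr with a minimum count of 10, TMM scaling, robust quasi-likelihood F test, Benjamini-Hochberg adjustment over all tested genes, called at an adjusted p under 0.05. The fit used groups from the labels. Levels are TMM-scaled CPM computed from the deposited counts. DESeq2 1.42.0 and limma 3.58.1 (voom with quality weights) were alternatives, as were other scalings, filters, blocks and left-out libraries. The DESeq2 and limma fits without GFP 16 h replicate 2, and the comparison averaged over both times, were added after seeing the data. The edgeR step was tested on simulated data. Total counts per library set the precision.

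The 9 genes and the lists were chosen with earlier results of these data known. Beyond the 9 genes the text names up to 4 called genes per list and comparison by smallest adjusted p, a fixed set of pathway genes, and the 3 genes most like Foxo1, Klf2 and S1pr1 among those with a mean log2 CPM of 3 or more. Motifs were searched in RefSeq promoters of GRCm38.p6.

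Some genes of the lists are not reported here.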

Additional observations from a re-analysis of the deposited data

Results flagged for a closer look

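Klf3 was flagged because both E47-ER libraries lay below both GFP libraries at 4 h and above both at 16 h. The difference of its E47-ER effect, 16 h minus 4 h, was 0.79 on the log2 scale, with a standard error of 0.398 and a 95% interval of -0.12 to 1.71. The edgeR adjusted p of that difference was 0.699, so it did not pass. Klf3 had 15 to 45 counts per library.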

How the results depend on the processing

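Calls among the 9 genes depended on the tool and on 1 library. The directions of Klf2, Klf3, Klf6, Klf13, S1pr1 and Btg2 at 4 h and 16 h held in every alternative run. Where the E47-ER and GFP libraries of a gene did not overlap, leaving out 1 library could hardly reverse its direction. At 4 h, edgeR called 0 with all 8 libraries, 1 (Klf6) with no filter, and 3 by limma and with only the 4 libraries; leaving out each library gave 0 to 4. At 16 h the call count was 0, and it was 3 by DESeq2, 2 with no filter, and 0 to 5 with each library left out. Without GFP 16 h replicate 2, DESeq2 and limma both called Btg2, Klf6 and S1pr1 at 4 h, and these with Klf2 and Klf13 at 16 h. Both tools also called many other genes in these fits, and a single GFP library is left at 16 h. Their calls among the 9 genes therefore only describe them. Leaving out GFP 16 h replicate 1 instead gave 4 at each time, with Foxo3 among them at 16 h, where 7022 genes were called. For 16 h against 4 h in E47-ER cells the count was 2 by limma and 4 with only the 4 libraries, where 406 and 957 of all genes were called, against 2 genes in all with edgeR and all 8 libraries. It was 0 to 1 with each library left out, and without GFP 16 h replicate 2, 1 by DESeq2 and 2 by limma. For time in GFP cells and for the difference of effects, it was 0 in every run except that without GFP 16 h replicate 1. That run called Foxo3 and Klf6 for time in GFP cells, and Foxo3 and Klf13 for the difference of effects. It leaves as GFP cells at 16 h only the library that stands apart, and it called a large part of all tested genes too. Averaged over both times, 2 became 5 by DESeq2 and with no filter, 0 to 5 with each library left out, and 5 by DESeq2 and limma without GFP 16 h replicate 2. For that average 336 of all genes were called, 734 by DESeq2, 1250 with no filter, 90 to 6301 with each library left out, and 1357 and 2055 by DESeq2 and limma without GFP 16 h replicate 2. The cause of these changes was not tested.

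Deviations of libraries with the same replicate number were little correlated between E47-ER and GFP cells (0.0237 at 4 h and -0.0901 at 16 h, 2 pairs each). Each value rests on a single difference between replicates per cell group, and that at 16 h includes GFP 16 h replicate 2. These values cannot show whether the libraries were paired. A replicate block across times or within each time left 0 of the 9 genes called at 4 h and at 16 h, and the block within each time gave 0 for the average of both times.

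Over all genes, 39 were called at 4 h and 122 by DESeq2, 405 by limma, 442 with only the 4 libraries, 165 with no filter, 19 with library totals only, 11 with the block within each time and 1 to 619 with each library left out. At 16 h 217 were called, and 1052, 55, 6 and 1816 under the first 4 of these, 54 with that block and 15 to 7022 with each library left out. Library totals alone moved the median log2 fold change of all genes at 16 h to 0.12, against -0.01.

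Some values changed sign. For 16 h against 4 h in GFP cells, S1pr1 was -0.031 with library totals only and -0.014 with no filter. Without GFP 16 h replicate 2, by DESeq2 and limma, Foxo3 was -0.024 and -0.029 for E47-ER against GFP at 16 h, 0.048 and 0.047 for time in GFP cells, and -0.050 and -0.053 averaged over times. Klf13 was 0.0032 and 0.0083 and Btg1 -0.065 and -0.050 for time in GFP cells. For the difference of effects S1pr1 was -0.15 and -0.16 and Btg2 0.047 and 0.019. With each library left out in turn, these ranges crossed 0. At 4 h, Foxo1 gave -0.24 to 0.037 and Btg1 -0.27 to 0.20. At 16 h, Foxo3 gave -0.028 to 0.32 and Btg1 -0.072 to 0.29. For time in GFP cells, Foxo3 gave -0.29 to 0.047, Klf13 -0.32 to 0.0028, S1pr1 -0.45 to 0.36, Btg1 -0.079 to 0.38 and Btg2 -0.31 to 0.21. For the difference of effects, Klf2 gave -0.030 to 0.54, Klf6 -0.11 to 0.27, S1pr1 -0.16 to 0.66, Btg1 -0.10 to 0.36 and Btg2 -0.47 to 0.041. Averaged over times, Foxo1 gave -0.050 to 0.085, Foxo3 -0.052 to 0.12 and Btg1 -0.086 to 0.15. The cause of these changes was not tested.

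Depth limits Klf2, Klf3 and S1pr1 most, at 15 to 221 counts per library.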

Other observations

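Genes of early stimulation, a class to which Klf6 and Btg2 belong in many cells, moved in both directions in E47-ER cells. Without GFP 16 h replicate 2, edgeR called 5 of 18 at 4 h, where 4.33% of all tested genes were called. Jund and Socs3 rose and Ier3, Junb and Zfp36 fell. At 16 h, where a single GFP library is left in that fit, the genes called were Jund, Dusp2 and Socs3, which rose, and Ier3, which fell. The list's median log2 fold change was -0.20 at 4 h and 0.22 at 16 h. Ier3, an early response gene, had 43.5 and 49.7 CPM in E47-ER cells against 68.8 and 79.7 CPM in GFP cells at 4 h. Jund had 364 and 434 CPM in E47-ER cells against 283 and 304 CPM in GFP cells at 4 h. At 16 h Jund had 421 and 473 CPM in E47-ER cells and 269 and 633 CPM in GFP cells, so the groups overlapped. Socs3 also overlapped at 16 h, with 316 and 361 CPM in E47-ER cells and 217 and 323 CPM in GFP cells. In both cases the second GFP value is that of replicate 2, the library left out. Dusp2 and Ier3 did not overlap at 16 h. With all 8 libraries edgeR called 0 of the 18 at either time, with unadjusted p under 0.05 for 5 at 4 h and 3 at 16 h. DESeq2 then called 0 at 4 h and 1 at 16 h, and limma 2 at 4 h and 0 at 16 h.

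Of 16 p53 target genes, the class to which Btg2 also belongs, Zmat3 and Polk rose at 4 h without GFP 16 h replicate 2. In that fit 4.33% of all tested genes were called at 4 h. Trp53inp1 rose at 16 h, where a single GFP library is left, and the list medians were 0.12 at 4 h and 0.07 at 16 h. Zmat3 had 154 and 140 CPM in E47-ER cells against 125 and 103 CPM in GFP cells at 4 h. In the ERK5-MEF2 pathway, which activates Klf2 in endothelial cells, Mef2d and Mef2a rose at 16 h and 0 of the 6 tested genes were called at 4 h by edgeR, with 1 at an unadjusted p under 0.05 and 0 called by DESeq2 or limma. Mef2d had 126 and 143 CPM in E47-ER cells against 92.9 and 92.0 CPM in GFP cells at 16 h. With all 8 libraries edgeR called 0 genes of either list, with unadjusted p under 0.05 for 2 and 0 at 4 h and for 3 and 3 at 16 h. Among these, DESeq2 called 2 ERK5-MEF2 genes at 16 h and no other, and limma called 0.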
